A study of Homo sapiens with 6 samples.

Results

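Genes of Ras feedback and Eph signalling were followed in Caco-2 cells during coculture with THP-1 cells: the Sprouty genes SPRY1, SPRY2 and SPRY4, the Sprouty-related genes SPRED1 and SPRED2, the PH-like domain genes PHLDA1 and PHLDA2, the receptor gene EPHA2 and its ligand gene EFNA1. They were chosen by symbol, with earlier ratios of these arrays known, so their levels are a description. The members comprise 9 of 19775 genes and 21 of the 41091 probe sets that carry exactly 1 gene symbol, and no probe set carries a member symbol together with another. Caco-2 cells come from a human colorectal adenocarcinoma and form an enterocyte-like monolayer. THP-1 cells come from a human monocytic leukaemia and become macrophage-like with phorbol myristate acetate (PMA). All arrays hold Caco-2 cells grown on a porous membrane for 14 days, and for coculture the membrane was set above THP-1 cells given PMA for 4 days. Coculture lasted 0, 1, 3, 6, 24 or 48 h, with 1 array and no replicate at each time, so no test was possible, and every value describes a single array. The labels give no passage or clone of either line, and no time-matched Caco-2 array without THP-1 cells was analysed here.

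Sprouty proteins are inhibitors of signalling from receptor tyrosine kinases through Ras to the kinase ERK, and their genes are themselves switched on by that pathway, which closes a negative feedback loop. SPRED proteins share the Sprouty domain and bring neurofibromin, a GTPase activator that turns Ras off, to the membrane. EphA2 is a receptor tyrosine kinase at epithelial cell contacts whose gene is also a target of ERK signalling. Ephrin-A1, a ligand anchored in the membrane of neighbouring cells, activates EphA2 and can dampen Ras-ERK signalling through it.

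Signals are MAS5 intensities per probe set. Values under a floor of 16.2, the 50th percentile of all values, were set to it before log2 was taken. A gene is represented by the probe set whose mean log2 signal is largest, and is called higher or lower than at 0 h when it differs at least 2-fold with the brighter array above the floor. All 9 members lay above the floor on all 6 arrays. Of their 21 probe sets, 16 did so too, 4 crossed the floor and 1, for SPRED2, stayed under it. All 5 ratios of a gene share the single 0 h array.

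The arrays were alike in median signal, 15.3 to 16.7. The 3' to 5' signal ratio of the ACTB control probe sets, a measure of RNA integrity and labelling, was 51.2, 27.7, 22.9, 18.0, 27.9 and 37.0 at 0, 1, 3, 6, 24 and 48 h. It was thus lower at every coculture time than at 0 h. The same ratio for GAPDH was 4.69, 3.81, 4.29, 3.54, 4.72 and 4.23 at those times, and was not lower at 24 h. The part of RNA integrity and labelling in the ratios below was not tested. All 12 enterocyte markers searched, among them VIL1, CDX2 and CDH17, were above the floor on every array, with a summed signal of 25567 to 28336. Single enterocyte markers still differed from 0 h: CDX2 was 3.51-fold lower at 3 h and 2.42-fold lower at 6 h, and KRT20 was called higher at 3, 6 and 24 h, by 4.04-fold at the last. At 48 h SI was 4.50-fold and FABP1 4.37-fold lower, and APOA1, named after its values were seen, was lower too. FABP1 was also 2.01-fold lower at 24 h. The part of these differences in the results below was not tested. Of 14 macrophage markers with a probe set, 5 to 8 were above the floor, and their summed signal was 901 at 0 h and 536 to 746 at the coculture times. PTPRC, SPI1, C1QA and C1QB stayed under the floor on every array. AIF1 and FCER1G, which were above the floor at 0 h, were called lower at 1 or more coculture times, and no macrophage marker was called higher. The sum of the macrophage markers was thus no higher in coculture than at 0 h, but it leaned on AIF1. That gene, read by an _x_at probe set that may bind unrelated transcripts, fell from a signal of 360 before coculture to 43.0 on the last array. LYZ, the next brightest marker before coculture, went the other way late, with signals of 247, 296, 262, 199, 366 and 412 in time order. Whether the coculture arrays held RNA of THP-1 cells was not tested.

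Promoters are shown as a description of the members. Of the 9 courses, 8 had their highest signal at 3 or 6 h, among them SPRY2 and EFNA1, which were not called. The share of all genes with their highest signal then was not counted, so nothing is read from the 8. Sequences of the 250 bases before an annotated gene start were taken from RefSeq, build GRCh38.p14, for the 8 members with an entry, which gave 12 windows. PHLDA2 is named only. Both strands were searched for AP-1 (TGACTCA), the cyclic AMP response element CRE (TGACGTCA), its left part (TGACG, contained in the CRE), EGR (GCGGGGGCG), ETS (CCGGAAG) and, by name, CArG and NF-kB sites. The windows printed are EPHA2 and PHLDA1, the genes with the highest ratios at 6 h, and the second start of SPRY1, the gene with the lowest ratio there. Capitals mark a motif, the CRE in EPHA2 and the ETS and EGR motifs in SPRY1.
EPHA2, chr1:16156070-16156319, minus strand: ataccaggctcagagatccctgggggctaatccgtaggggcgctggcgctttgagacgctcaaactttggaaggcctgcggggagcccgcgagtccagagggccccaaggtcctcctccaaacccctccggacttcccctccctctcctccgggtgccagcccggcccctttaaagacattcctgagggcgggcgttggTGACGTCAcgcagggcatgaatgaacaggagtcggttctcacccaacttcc
PHLDA1, chr12:76031777-76032026, minus strand: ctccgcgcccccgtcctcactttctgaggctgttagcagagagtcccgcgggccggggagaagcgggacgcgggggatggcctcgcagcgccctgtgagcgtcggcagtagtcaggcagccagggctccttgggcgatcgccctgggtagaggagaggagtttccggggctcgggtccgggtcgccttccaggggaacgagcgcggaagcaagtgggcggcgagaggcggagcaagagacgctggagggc
SPRY1, chr4:123398136-123398385, plus strand: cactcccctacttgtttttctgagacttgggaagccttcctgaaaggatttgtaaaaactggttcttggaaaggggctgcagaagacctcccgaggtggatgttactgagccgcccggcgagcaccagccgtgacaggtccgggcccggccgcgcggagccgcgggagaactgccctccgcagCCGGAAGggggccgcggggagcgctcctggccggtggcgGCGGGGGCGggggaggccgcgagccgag
In EPHA2 the CRE lies from -51 to -44, counting the base before the start as -1, and its letters read the same on both strands. In SPRY1 the ETS motif lies from -67 to -61 and the EGR motif from -28 to -20. PHLDA1 held no match in this window.

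Among all 12 member windows the CRE was found in 1, the EGR motif in 2 (SPRY1 and SPRY2) and the ETS motif in 1. The left part TGACG was found in 3 windows, those of EPHA2, SPRY4 and SPRY2. Over 35116 windows of the same length, the CRE was present in 1.65%, TGACG in 21.2%, EGR in 4.72%, ETS in 8.52%, AP-1 in 4.20%, CArG in 1.16% and NF-kB in 9.96%. AP-1, CArG and NF-kB letters occurred in no member window. A match describes letters only and is no evidence of a bound site.

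Of the 9 members, 6 were called higher at 1 or more coculture times, with their highest levels at 3 or 6 h. Among the Sprouty and SPRED genes these were SPRY4, SPRED1 and SPRED2, but not SPRY1 or SPRY2. At 1 h 4 of 9 members, SPRY4, PHLDA1, PHLDA2 and EPHA2, exceeded their 0 h level at least 2-fold. At 3 h SPRED1 and SPRED2 joined them, which made 6. The same 6 were higher at 6 h, and 4 members (SPRED1, PHLDA1, PHLDA2 and EPHA2) at 24 h and at 48 h. None was called lower at any time. Among 14760 measured genes, those above the floor on at least 1 array, 1.9% were higher and 1.46% lower at 1 h, 3.1% and 3.52% at 3 h, and 4.21% and 6.44% at 6 h. At 24 h 3.92% were higher and 6.12% lower, and at 48 h 3.82% and 6.11%. The members were named with these ratios known, so nothing is read from their counts against this background.

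The median log2 ratio of the 9 members was 0.58, 1.55, 1.37, 0.52 and 0.53 over 1, 3, 6, 24 and 48 h, while that of all measured genes lay between -0.04 and 0.00. The highest signal fell at 3 h in 3 members, at 6 h in 5 and at 48 h in 1, SPRY1. SPRY1, SPRY2 and EFNA1 never differed 2-fold from 0 h. In this bulk RNA, fewer cells that express a gene and less RNA per cell cannot be told apart.

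**Figure D1:**
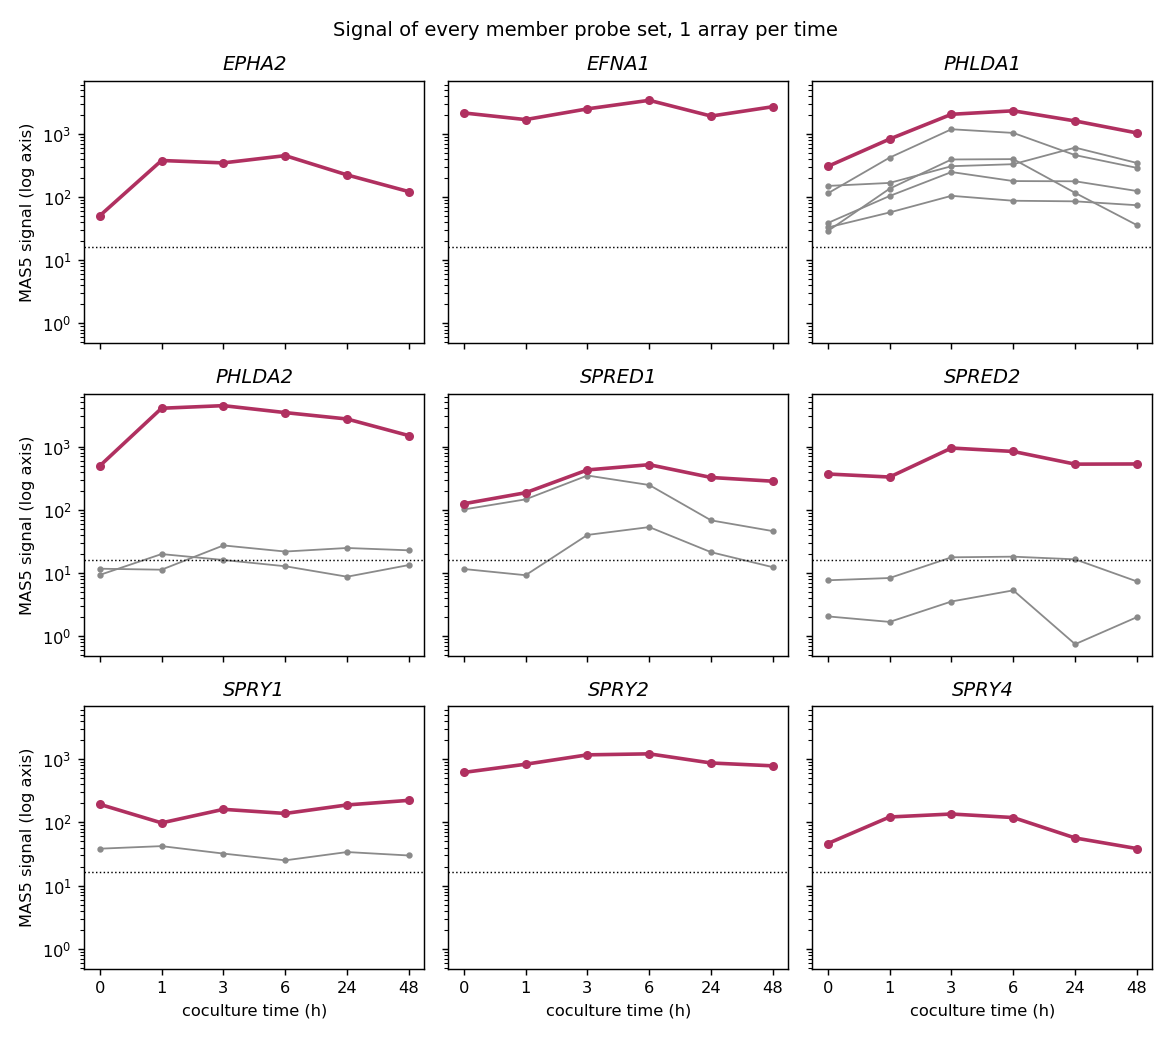
MAS5 signal (log axis) of all 21 member probe sets against coculture time, 1 array per time; the thick red line is the probe set that represents the gene, thin grey lines are its other probe sets, and the dotted line is the floor of 16.2. EPHA2 and PHLDA2 reach near their highest signal at 1 h, PHLDA1 and SPRED1 are highest at 6 h, and SPRY1 and EFNA1 lie on both sides of their 0 h signal.

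EPHA2, the receptor, had the highest log2 ratio of the 9 genes at 6 h. Its single probe set 203499_at gave a signal of 50.5, 378, 347, 452, 224 and 122 at 0, 1, 3, 6, 24 and 48 h. All coculture arrays were above the 0 h array, with a plateau over 1 to 6 h and lower signals after it. The ratio to 0 h was 7.50-, 6.87-, 8.95-, 4.43- and 2.41-fold over the 5 coculture times. At 6 h it ranked 12 from the top of all measured genes.

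EFNA1, which encodes the ligand ephrin-A1, stayed under a 2-fold difference from 0 h at all 5 times. Its signal was 2141, 1680, 2483, 3392, 1909 and 2688 at 0, 1, 3, 6, 24 and 48 h. These values lie on both sides of the 0 h array, and the log2 ratios ran from -0.35 at 1 h to 0.66 at 6 h, a 1.58-fold difference. The array at 6 h was 2.02-fold above that at 1 h.

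Of the Sprouty genes, SPRY4 was called higher early, SPRY2 stayed just under the 2-fold line and SPRY1 was not higher. SPRY4, which inhibits Ras activation downstream of growth factor receptors, had signals of 46.3, 122, 136, 119, 56.7 and 38.5 at 0, 1, 3, 6, 24 and 48 h. The arrays at 1, 3 and 6 h stood apart from the other 3. The ratio there was 2.63-, 2.93- and 2.58-fold, and the later log2 ratios were 0.29 and then -0.26. SPRY4 has 1 probe set, 221489_s_at, whose suffix marks probes shared by several transcripts.

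SPRY2, whose protein binds the ubiquitin ligase CBL, had a signal of 617, 833, 1172, 1215, 871 and 785 at 0, 1, 3, 6, 24 and 48 h. All 5 coculture arrays were above the 0 h array. Its ratios of 1.90-fold at 3 h and 1.97-fold at 6 h fell just short of the threshold. With arrays scaled to a common median the log2 ratio at 6 h was 1.03 instead of 0.98, which passes it.

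SPRY1, a further Sprouty inhibitor, had signals of 193, 98.2, 161, 139, 189 and 223 at 0, 1, 3, 6, 24 and 48 h on 212558_at. The 1 h array was the lowest, 1.97-fold under 0 h and just short of the threshold. The second probe set, 230212_at, did not show that dip, with signals of 38.4, 42.1, 32.1, 25.1, 34.0 and 29.96 at 0, 1, 3, 6, 24 and 48 h. At 1 h their log2 ratios were -0.98 and 0.13. Both were under their 0 h level at 3, 6 and 24 h, by log2 ratios of -0.03 to -0.61. None of these differences reached 2-fold.

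**Figure D2:**
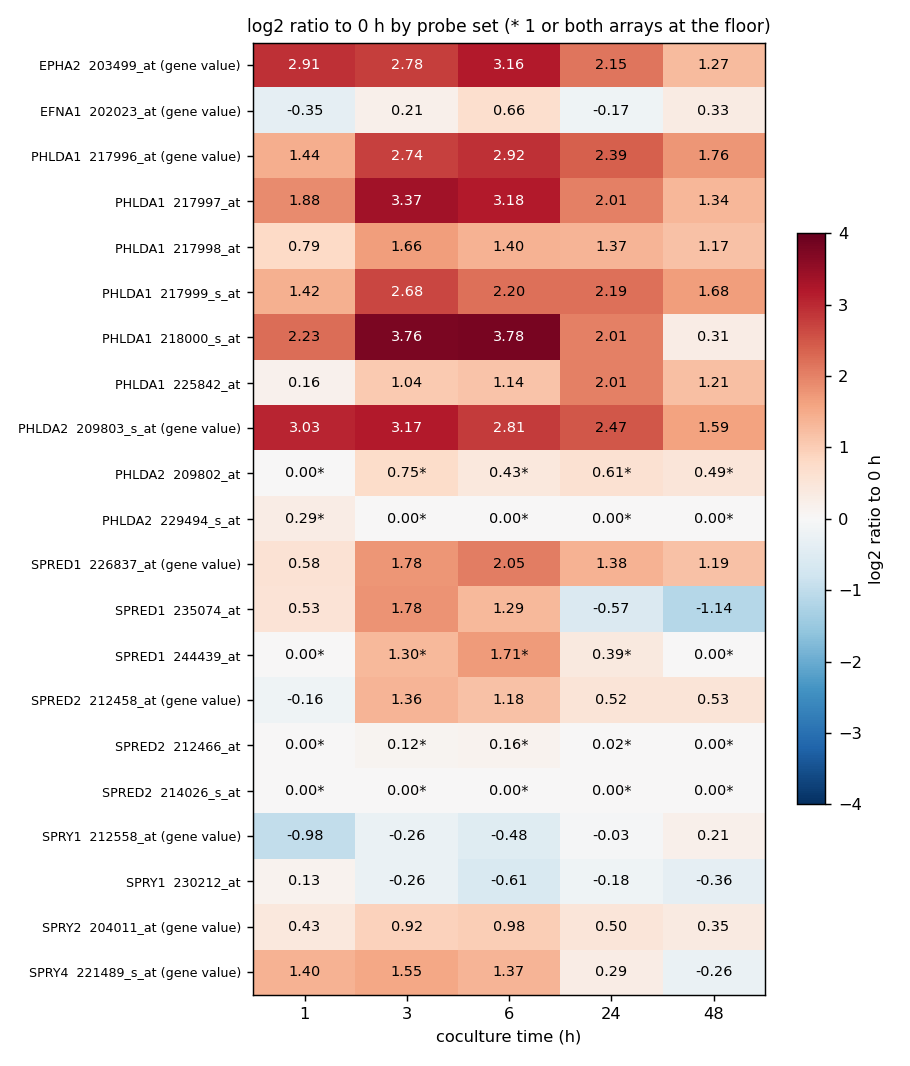
Log2 ratio to 0 h (colour and printed value) of the 21 member probe sets at the 5 coculture times, grouped by gene; a star marks a ratio with 1 or both arrays at the floor. Probe sets of PHLDA1 are all above 0, while those of SPRED1 part at 24 and 48 h (1.38 and -0.57, then 1.19 and -1.14).

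SPRED1 and SPRED2, which act on Ras through neurofibromin, were called higher later than EPHA2 and SPRY4. SPRED1 had signals of 124, 186, 426, 516, 324 and 282 at 0, 1, 3, 6, 24 and 48 h on 226837_at. Each coculture array was above the 0 h array, and the ratio was 1.49-, 3.43-, 4.15-, 2.61- and 2.27-fold over the 5 coculture times. Between the 1 h and 3 h arrays, a step that leaves the 0 h array out, the signal was 2.30-fold higher at 3 h.

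The other SPRED1 probe sets shared the early part of this course and not the late part. On 235074_at the signal was 101, 146, 347, 246, 67.8 and 45.8 at 0, 1, 3, 6, 24 and 48 h. This is 3.45-fold higher at 3 h, and 2.20-fold lower at 48 h, where 226837_at was 2.27-fold higher. The third, 244439_at, was under the floor at 0, 1 and 48 h and at least 3.27-fold higher at 6 h, with a signal of 53.1. The calls of SPRED1 at 24 and 48 h thus rest on 1 probe set of 3, and with the median over its probe sets the log2 ratios were 0.39 and 0.00.

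SPRED2 had a signal of 367, 329, 946, 835, 526 and 529.5 at 0, 1, 3, 6, 24 and 48 h on 212458_at. The 0 and 1 h arrays were the lowest, and the signal at 3 h was 2.57-fold that at 0 h and 2.88-fold that at 1 h. At 6 h it was 2.27-fold higher, and at 24 and 48 h the log2 ratios were 0.52 and 0.53. The other probe sets of SPRED2 gave no independent measure, since 212466_at peaked at a signal of 18.1, near the floor, and 214026_s_at at 5.30. With the median over probe sets the log2 ratio at 3 h was 0.12.

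PHLDA1 and PHLDA2 encode small proteins with a pleckstrin homology-like domain, a fold that binds membrane phosphoinositides. PHLDA1 has been described as a marker of intestinal epithelial stem cells, and PHLDA2 is an imprinted gene that limits placental growth in mice. Both genes were higher than at 0 h at all 5 coculture times.

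PHLDA1 had signals of 305, 826, 2038, 2314, 1599 and 1032 at 0, 1, 3, 6, 24 and 48 h on 217996_at. The 0 h array was the lowest and the 48 h array was still above that at 1 h. The ratio was 2.71-, 6.68-, 7.59-, 5.24- and 3.38-fold over the 5 coculture times. All 6 of its probe sets were above their 0 h level at every coculture time, with log2 ratios that ranged over 0.16 to 2.23, 1.04 to 3.76, 1.14 to 3.78, 1.37 to 2.39 and 0.31 to 1.76 as time went on.

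The probe set 217997_at was the next brightest of PHLDA1 at 3 and 6 h, with signals of 114, 420.2, 1182, 1034, 460.3 and 289 at 0, 1, 3, 6, 24 and 48 h. The dimmer set 217999_s_at gave 38.8, 104, 249, 179, 178 and 125, and 217998_at gave 33.0, 57.0, 105, 87.3, 85.5 and 74.2. All 3 were highest at 3 h.

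The remaining PHLDA1 probe sets differed more in time course. Of the 6, 5 were highest at 3 or 6 h, while 225842_at had signals of 150, 167, 307, 331, 605 and 346 at 0, 1, 3, 6, 24 and 48 h, and was highest at 24 h. On 218000_s_at the signal was 28.9, 136, 393, 398, 116 and 35.9 at 0, 1, 3, 6, 24 and 48 h. Its ratio was the highest of all 21 member probe sets, 13.8-fold above 0 h at 6 h, and its ratio at 48 h was 1.24-fold.

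PHLDA2 had signals of 492, 4031, 4433, 3440.3, 2725 and 1487 at 0, 1, 3, 6, 24 and 48 h on 209803_s_at. The step to 1 h made up most of the difference, and each later array from 6 h on was lower than the one before. The ratio was 8.19-, 9.01-, 6.99-, 5.54- and 3.02-fold over the 5 coculture times. It was the member with the highest ratio at 1, 3 and 24 h. The result rests on this probe set, because 209802_at and 229494_s_at stayed at signals of 27.2 or less and were under the floor at 0 h. At 3 h 209802_at was at least 1.68-fold higher, and 229494_s_at was under the floor on both arrays.

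**Figure D3:**
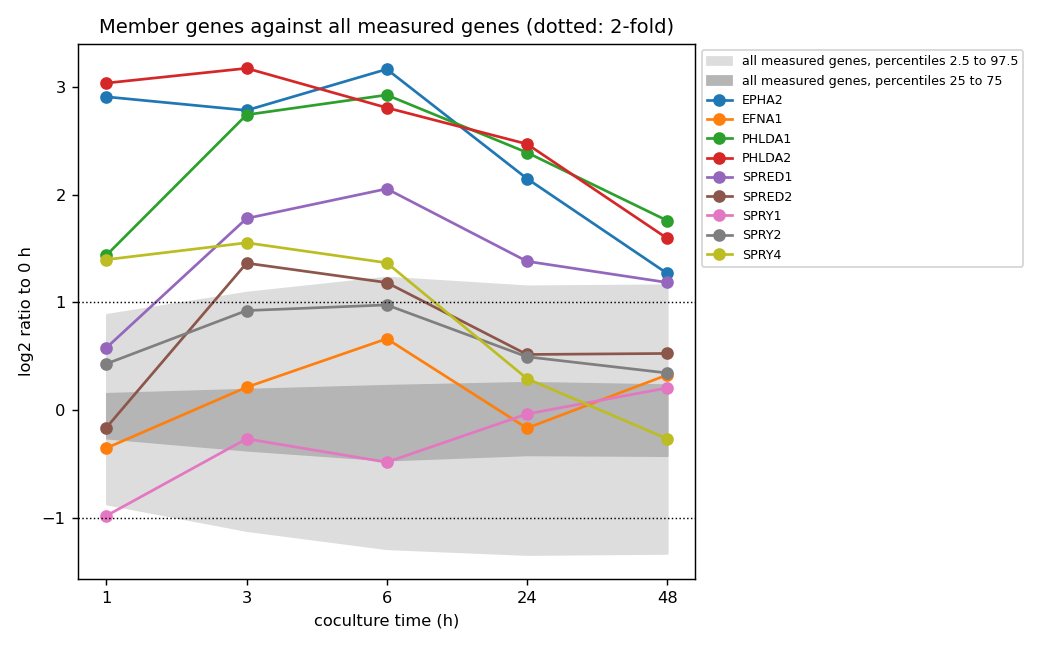
Log2 ratio to 0 h of the 9 member genes at each coculture time (lines, 1 array per time) over the percentiles 2.5 to 97.5 and 25 to 75 of 14760 measured genes (light and dark grey bands); dotted lines mark 2-fold. EPHA2, PHLDA1, PHLDA2 and SPRED1 lie above the outer band at 3, 6, 24 and 48 h, and SPRY1 lies below it at 1 h.

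The genes fell into early and delayed courses. As a share of their highest log2 ratio, PHLDA2 had reached 95.7%, EPHA2 91.9% and SPRY4 89.9% at 1 h, while PHLDA1 had reached 49.2%, SPRY2 44.1% and SPRED1 28.2%. SPRED2 was at a log2 ratio of -0.16 at 1 h. From the 1 h to the 3 h array, SPRED2, PHLDA1 and SPRED1 were at least 2-fold higher, by 2.88-fold, 2.47-fold and 2.30-fold.

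Late levels also differed. At 48 h PHLDA1 kept 60.2%, SPRED1 57.7%, PHLDA2 50.3% and EPHA2 40.1% of their highest log2 ratio. These shares hold for the representing probe sets only, and probe sets of 1 gene differed widely. On 218000_s_at of PHLDA1 the log2 ratio was 3.78 at 6 h and 0.31 at 48 h. On 217998_at of PHLDA1 it was 1.66 at 3 h and 1.17 at 48 h. On 235074_at of SPRED1 it was -1.14 at 48 h. No order of the genes is read from the shares. SPRY4 was the only member called higher at 1 h whose ratio at 48 h was below 0. Its signal at 48 h was 3.52-fold under its highest, compared with 3.71-fold for EPHA2, 2.98-fold for PHLDA2 and 2.24-fold for PHLDA1.

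Likeness between courses was measured as the root-mean-square difference of the 5 log2 ratios, without a test. Of the 36 pairs of members, PHLDA2 and EPHA2 were the most alike (0.32), followed by SPRY2 and SPRED2 (0.35), and SPRY1 and PHLDA2 the least (3.06). Among 10427 other genes above the floor on all arrays, the nearest to EPHA2 were RELB (0.27), TNFAIP3 (0.47) and IER3 (0.49). Those nearest to PHLDA2 were RELB (0.26), CCL20 (0.52) and CXCL3 (0.55). RELB headed both, with a 0 h signal of 17.1, close to the floor, and log2 ratios of 2.54, 2.91, 2.83, 2.40 and 1.44 over the 5 coculture times.

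The slower members had other neighbours. PHLDA1 was nearest to PMEPA1 (0.32), ZC3H12D (0.41) and VMP1 (0.50), and SPRED1 to STK17A (0.14), TNFRSF10A (0.14) and TBX3 (0.21). SPRED2 was nearest to TMEM133 (0.16), ANKRD12 (0.17) and IL6R (0.20). SPRY4 was nearest to RTN4R (0.13), CYP3A5 (0.21) and ZC3H12C (0.24). Every ratio shares the 0 h array, and the likeness says nothing of shared control.

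Outside the members, many genes of a list of outputs of Ras-ERK signalling were higher over the same hours. The list holds, among others, ERK phosphatases, AP-1, EGR and ETV factors, CCND1, EGF receptor ligands, SPRY3 and SPRED3. ETV1, ETV4, ETV5, CCND1, AREG, TGFA, SPRY3 and SPRED3, named after their values were seen, were not among the genes called higher at any time. Of 18 measured genes of 20 listed, 8, 12, 11, 7 and 4 exceeded 2-fold at 1, 3, 6, 24 and 48 h, with no gene lower. Among all measured genes 1.9 to 4.21% were higher at these times. This list and those below were chosen with earlier results of these arrays known, so nothing is read from their counts against that background. The list medians were log2 ratios of 0.88, 1.37, 1.42, 0.66 and 0.43 in that order. The 4 genes still called at 48 h were the ERK phosphatases DUSP5 and DUSP6, the EGF receptor inhibitor ERRFI1 and the receptor ligand EREG, which are named after their values were seen. That count was 2 with a pseudocount in place of the floor or with the median over probe sets. IER3, an early response gene, had signals of 380, 3763, 3312, 2783, 1123 and 564 at 0, 1, 3, 6, 24 and 48 h. EGR1, an immediate early transcription factor, was 6.92-fold higher at 1 h and FOSL1, an AP-1 subunit, 6.13-fold. FOS, its relative, was 1.64-fold higher at 1 h but 5.87-fold at 6 h. Unlike EPHA2 and PHLDA1, EGR1, FOSL1 and IER3 were not past 2-fold at 48 h, with log2 ratios of 0.79, -0.67 and 0.57; the difference between the genes was not tested.

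The cascade from receptor to ERK itself differed little. Of 20 measured genes of 26 listed, 1, 1, 0, 0 and 2 exceeded 2-fold over the 5 times and 0 were lower, with median log2 ratios of 0.04 to 0.15. MAPK3, which encodes the kinase ERK1, was 2.12-fold higher at 1 h, and MET, the receptor of hepatocyte growth factor, 2.15-fold and FGFR1, a fibroblast growth factor receptor, 2.51-fold higher at 48 h. MAPK3 and FGFR1 are measured here by _x_at probe sets, which may bind unrelated transcripts, and the MAPK3 call was lost when such sets were left out. The count at 48 h was 0 with the median over probe sets.

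Genes of Ras GTPase activators and Sprouty partners had 1, 2, 4, 3 and 1 of 15 measured genes past 2-fold at 1, 3, 6, 24 and 48 h, all of them higher. Their median log2 ratios were 0.09, 0.32, 0.51, 0.28 and 0.36. CAV1, the caveolin that binds Sprouty proteins, had signals of 101, 133, 144, 207, 413 and 455 at 0, 1, 3, 6, 24 and 48 h. Its course was late, with 4.50-fold at 48 h, when the log2 ratios of the Sprouty genes were -0.26 to 0.35. RASA2, a GTPase activator of Ras, was 2.30-fold higher at 3 h and RASA3, a related activator, at least 3.00-fold at 24 h. SIAH2, a ubiquitin ligase that targets SPRY2, was 2.01-fold higher at 6 h.

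Among the other Eph receptors and ephrins, EFNB1 and EFNB2 were called higher at 3 and 6 h. EFNB2, which encodes ephrin-B2, had signals of 1038, 1704, 3385, 3919, 2719 and 1747 at 0, 1, 3, 6, 24 and 48 h. EFNB1, ephrin-B1, reached 2.71-fold at 3 h and 2.99-fold at 6 h. Both peaked at 6 h, like EPHA2. Of 17 measured genes of this list, 0, 2, 2, 3 and 0 were higher, and 1, EFNA3, another ligand of EphA receptors, was lower at 3 h by 2.52-fold. Its signals were uneven, at 46.9, 31.0, 18.6, 84.6, 39.9 and 37.2 over the 6 times. At 24 h the 3 higher genes were EFNB2 and the receptors EPHA8, by at least 2.14-fold, and EPHB3, named after its values were seen. EPHA8 was above the floor at 3 and 24 h only, with signals of 2.24, 15.6, 19.0, 4.21, 34.8 and 11.1 over the 6 times. The median log2 ratios were 0.00 to 0.22.

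Genes of EphA2 partners had 1 of 15 higher at 6 h, RPS6KA1, an ERK-dependent kinase, by 2.53-fold. TIAM1, an exchange factor for Rac, was 3.58-fold lower at 24 h and by 3.13-fold at 48 h, and AKT1, a survival kinase, was 2.29-fold lower at 48 h. PHLDA3, the third PH-like domain gene, reached at least 2.26-fold at 3 h and 2.84-fold at 6 h, with a signal of 13.5 at 0 h, and AURKA, a mitotic kinase, was lower by 2.02-fold at 24 h and by 2.07-fold at 48 h. FAS, FASLG and IGF1R, which complete this list of 5, were not past 2-fold at any time.

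**Figure D4:**
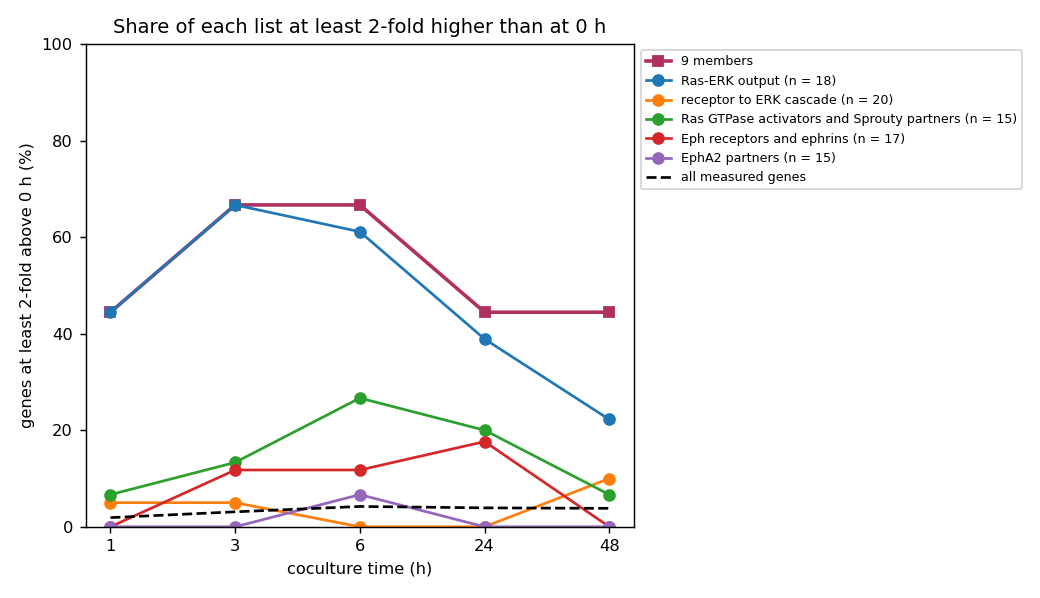
Percent of genes at least 2-fold higher than at 0 h at each coculture time, for the 9 members (squares), 5 pathway lists (circles, with the number of measured genes) and all measured genes (dashed); the list of 5 PH-like domain genes and partners is not drawn. The members and the Ras-ERK output genes are highest at 3 and 6 h, while the cascade from receptor to ERK lies between 0 and 10%.

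The technical scale of single ratios was read from pairs of probe sets of the same gene at 1 h against 0 h. Pairs were classed by their dimmer probe set, and both probe sets had to be above the floor at 0 and 1 h. Values for dim signals may thus be too small. The robust SD of a log2 ratio was 0.39 at signals of 16 to 32 and 0.43 at 32 to 64, and it was 0.15 in the brightest class. This spread also holds real differences between transcripts and leaves out the variation between cultures. It says nothing of how far separate cultures differ.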

How the data were processed

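RNA from Caco-2 cells was hybridised to 6 Affymetrix arrays, 1 per coculture time (0, 1, 3, 6, 24 and 48 h). As deposited, each value is a linear MAS5 signal intensity of 1 probe set, per the submitters' processing notes. No MAS5 version, scaling target or detection call is given in the sources used here. On every array the trimmed mean signal was 93.8. MAS5 scales each array to one level, so differences in total RNA between cells are lost.

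The platform annotation gives 1 gene symbol to 41091 of 54675 probe sets and several to 1801. Symbols were updated by gene ID in the RefSeq table, which held 41037 of the 41091. With Python 3.11.15 and pandas 2.3.3, signals were floored at 16.2 and log2 was taken. For each gene the probe set with the largest mean log2 signal was used. A call needed a 2-fold difference from 0 h, with the brighter array above the floor. With 1 array per time no test was made and no p-value is given. The size rule was tried on simulated data. The changed genes there were bright and clearly past 2-fold, with noise below the probe set spread of these arrays. No error rate for the calls reported here follows from it. The number of arrays limits the precision.

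The members and the lists were chosen with earlier results of these data known. Named genes were all members, up to 4 genes of each list with the largest ratios past 2-fold, and the 3 genes nearest in course to each called member. FAS, FASLG, IGF1R, EPHB3, APOA1, DUSP5, DUSP6, ERRFI1 and EREG were named after their values were seen. So were ETV1, ETV4, ETV5, CCND1, AREG, TGFA, SPRY3 and SPRED3. Sequences are from RefSeq, GRCh38.p14. The settings varied were quantile normalization, a common median, floors at the 30th and 65th percentiles, a pseudocount, the median over probe sets, leaving out _x_at and _s_at probe sets, the 1 h array as baseline, and rules of 1.5-fold and 3-fold.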

Additional observations from a re-analysis of the deposited data

How the results depend on the processing

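Of 98 recomputed counts of members called, 87 were within 1.5 times the count reported. Every reported count of members lower was 0, and a 0 that stayed 0 is included in the 87. Taking the median of all probe sets of each gene, 4 members were higher at 3 h and 4 at 6 h. The reported count was 6 at both times, and 4 is within 1.5 times of it. With that median 2 members, PHLDA1 and EPHA2, were higher at 24 h and 2 at 48 h. When _x_at and _s_at probe sets were left out, 8 members had a value and 2 were higher at 1 h, beside 2.05% of all measured genes. These changes follow from the probe sets used for PHLDA2, SPRED1, SPRED2 and SPRY4. With the 1 h array as the baseline, 3 members were higher at 3 h, 0 at 24 h and 1 at 48 h, and 1 was lower at 24 h and 3 at 48 h. Of all measured genes, 1.34%, 2.54% and 2.97% were higher at 3, 24 and 48 h on that baseline. At 24 and 48 h 4.53% and 4.80% were lower. On that baseline log2 ratios turned negative for SPRY4 at 6 h (-0.0297), PHLDA2 at 6, 24 and 48 h (-0.23, -0.565 and -1.44) and EPHA2 at 3, 24 and 48 h (-0.13, -0.76 and -1.64), all called higher against 0 h. Values not called against 0 h changed sign as well: SPRY4 at 24 h was -1.10, SPRY2 at 48 h -0.085, SPRY1 at 3, 6 and 24 h 0.71, 0.50 and 0.94, and EFNA1 at 24 h 0.18. SPRY1 at 24 h was 0.014 with a common median, and at 48 h -0.075 with the median over probe sets. With the 1.5-fold rule 1 member, SPRY1, was lower at 1 h, beside 8.09% of all measured genes. With the 3-fold rule 2 were higher at 1 h and 2 at 48 h, beside 0.48% and 0.72% of all measured genes. All 10 counts stayed within 1.5 times with the pseudocount, with arrays scaled to a common median and with quantile normalization. Both other floors lay below every signal of the representing probe sets, so the 10 counts under each could not change. Those fixed counts are included in the 87 and say nothing of stability. Of 346 recomputed values of member genes, 294 moved by less than the probe set spread, 45 by more, and 7 called values changed sign. All 7, and 25 of the 45, came from the 1 h baseline. That baseline is another comparison, which shifts every ratio of a gene by its own 1 h ratio. Many of the 294 could not move. The 45 values under each other floor were fixed, since every signal of the representing probe sets lay above both floors. Values of the 4 genes with 1 probe set were fixed under the median over probe sets. Without _x_at and _s_at probe sets, 35 values came from the same probe set as before. Of 468 counts over the pathway lists, 392 were within 1.5 times, and a 0 that stayed 0 is included here too. No paired analysis was possible because each time has 1 array. Signals near the floor of 16.2 limit what can be said of the weaker probe sets of PHLDA2, SPRED1 and SPRED2.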
